A study of Mus musculus with 3 samples.

Results

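Cyclophilins are the proteins that bind cyclosporine (CSA), and 7 of their genes, Ppia, Ppib, Ppic, Ppid, Ppif, Ppih and Ppil1, were described in donor T cells of mice after allogeneic bone marrow transplantation (BMT). The 7 genes were taken by name from the 18029 genes of the count table, by a rule that used no measured value. The choice was made with earlier results of these data known. Binding of CSA to their products was not measured.

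B6D2F1 recipients were given total body irradiation, B6 bone marrow, B6 T cells and a small number of TEa T cell receptor transgenic T cells, which recognise a recipient alloantigen and came from donors on a Rag1-/- background. All 3 groups, saline included, shared this transplant. Daily treatment from day 0 to day 6 was saline, a low dose of CSA (5 mg/kg) or a high dose (50 mg/kg), and spleens were taken on day 7. Each group had 6 mice in 3 hashtagged pools of 2 mice, and the CD4+ and CD8+ T cells sorted from a group were mixed for 1 droplet capture. Capture and treatment therefore cannot be told apart, and every p-value below measures the spread between pools that shared a capture. The recipients' ages were not given in the sources used here.

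Cyclophilins are peptidyl-prolyl isomerases, which speed the turning of proline bonds as proteins fold. Cyclophilin A, the product of Ppia, is the main cytosolic receptor of CSA in T cells, and its complex with the drug blocks calcineurin, the phosphatase that lets NFAT enter the nucleus and switch on cytokine genes. Ppib encodes cyclophilin B of the endoplasmic reticulum, Ppic encodes cyclophilin C of the secretory pathway, and Ppif encodes cyclophilin D, a regulator of the mitochondrial permeability pore. Ppid encodes cyclophilin 40, a co-chaperone of HSP90, and Ppih and Ppil1 encode cyclophilins that sit in the spliceosome.

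The count table held 21204 cells, namely 10833 CD8+ T cells and 10371 CD4+ T cells, of which 280 were TEa cells and were left out of the comparisons. Median UMIs per cell were 3097, 4396 and 5979.5 in CD4+ T cells and 4108, 6121.5 and 7183 in CD8+ T cells in the order of saline, low dose and high dose, so depth moved with dose. The sums per pool were between 3994968 and 11454636 UMIs. The cycling clusters held a mean of 21.7%, 23.1% and 33.1% of CD4+ T cells and 53.3%, 49.3% and 45.1% of CD8+ T cells in the same order. Of 20986 distinct barcodes, 218 were found in more than 1 capture, and 5.09% of cells carried a second strong hashtag. All 5 T cell markers checked (Cd3d, Cd3e, Cd3g, Trac and Lck) were present in every group, and Cd4 was at 0 in all CD8+ and Cd8a at 0 in all CD4+ T cells. Whether cells had been selected on Cd4 or Cd8a transcripts is not given in the sources used here. The zeros are therefore no measure of the purity of the sort. Cd8b1 was present in the CD4+ pools, at between 141 and 153 CPM (UMIs scaled to a total of 1000000) with saline, between 86.3 and 95.7 CPM at the low dose and between 20.8 and 25.8 CPM at the high dose, and its part in the results was not tested. The 8 B and plasma cell markers summed to between 190 and 212 CPM in the saline CD8+ pools and between 570 and 752 CPM at the high dose. In CD4+ T cells they summed to between 198 and 212 CPM and between 282 and 337 CPM, with Ms4a1 at 0 in the latter. Erythroid markers were between 7.31 and 22.8 CPM in the saline pools of both lineages and between 26.8 and 52.6 CPM at the high dose. Their part in the results below was not tested.

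Among the promoters in RefSeq's table for GRCm38.p6, 5 of the 7 genes were found (Ppia, Ppib, Ppif, Ppih and Ppil1). The sequences of Ppia and Ppib are shown because both genes rose at both doses, and that of Ppif because its level did not pass the test at either dose. Each run covers 250 bases before and 50 bases from the start of transcription in that table, 5′ to 3′ on the gene's strand. The runs lie at chr11:6415617-6415916 (+), chr9:66059919-66060218 (+) and chr14:25693920-25694219 (+). The gene positions given below come from GENCODE and have other starts. Ppib begins there at 66060222, after the end of its window. Capitals mark the GC box GGGCGG and its reverse complement CCGCCC, and the CCAAT box.
Ppia: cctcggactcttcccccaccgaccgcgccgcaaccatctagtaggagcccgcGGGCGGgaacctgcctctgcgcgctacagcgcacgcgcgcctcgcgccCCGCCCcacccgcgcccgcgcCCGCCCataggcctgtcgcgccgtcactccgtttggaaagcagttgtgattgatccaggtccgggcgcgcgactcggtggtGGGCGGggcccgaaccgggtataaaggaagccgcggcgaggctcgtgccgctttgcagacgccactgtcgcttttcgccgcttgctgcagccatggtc
Ppib: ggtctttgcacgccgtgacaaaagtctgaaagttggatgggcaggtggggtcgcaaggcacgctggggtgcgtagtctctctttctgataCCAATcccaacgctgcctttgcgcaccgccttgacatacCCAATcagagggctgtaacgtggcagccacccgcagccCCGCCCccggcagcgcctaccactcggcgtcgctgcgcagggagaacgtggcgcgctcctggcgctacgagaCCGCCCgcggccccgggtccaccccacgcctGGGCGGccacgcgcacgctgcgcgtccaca
Ppif: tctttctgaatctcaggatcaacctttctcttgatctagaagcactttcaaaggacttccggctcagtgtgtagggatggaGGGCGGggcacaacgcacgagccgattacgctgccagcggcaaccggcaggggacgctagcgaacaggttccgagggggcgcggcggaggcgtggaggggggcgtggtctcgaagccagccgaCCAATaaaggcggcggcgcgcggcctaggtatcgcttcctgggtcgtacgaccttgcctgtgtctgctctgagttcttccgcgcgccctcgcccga

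The Ppia window held 4 GC boxes and no CCAAT box, the Ppib window 3 GC boxes and 2 CCAAT boxes, and the Ppif window 1 of each. Among 32851 promoters of the same length, 35.7% held a GC box and 37.4% a CCAAT box, read on both strands. GC content was 70.7% for Ppia, 67.7% for Ppib and 63.0% for Ppif, and 52.7% at the median of all promoters. The core GGAAA of the NFAT site was found 1 time for Ppia, 2 times for Ppih and in neither of the other windows shown, and 61.3% of all promoters held it. None of the 5 windows held the letters CACGTG (7.15% of promoters) or the endoplasmic reticulum stress element (0.119% of promoters). These are matches of letters and no evidence of binding.

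Ppia lies on chromosome 11 from 6415443 to 6419817, Ppib on chromosome 9 from 66060222 to 66066623, Ppid on chromosome 3 from 79591342 to 79603650, and Ppif on chromosome 14 from 25694154 to 25700468, all on the plus strand. Ppih lies on chromosome 4 from 119300010 to 119320546, Ppil1 on chromosome 17 from 29250803 to 29264186 and Ppic on chromosome 18, all on the minus strand (GRCm38). Pseudogene transcripts of at least 90% identity over at least 300 bases numbered 33 for Ppia, 5 for Ppih and 4 for Ppid, so that the counts of these 3 genes are uncertain to the extent that reads were shared with such copies. Ppib overlaps Snx22, Ppif overlaps Ppifos and Ppil1 overlaps an annotated antisense gene, each on the opposite strand.

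Ppia, the CSA receptor, rose with dose in both lineages. In CD4+ T cells its level was 2838, 2816 and 2792 CPM in the 3 saline pools, 4029, 4201 and 4271 CPM at the low dose, and 5145, 5129 and 5109 CPM at the high dose (CPM here is scaled by the trimmed mean of M values, TMM). The CD8+ pools held 2872, 2819 and 2824 CPM with saline, 4729, 4818 and 4690 CPM at the low dose, and 5575, 5241 and 5437 CPM at the high dose. No pool of one group overlapped with a pool of another in either lineage. The change at the high dose was 1.82-fold in CD4+ T cells (log2 0.87 ± 0.0287 SE, adjusted p = 2.66e-16) and 1.91-fold in CD8+ T cells (log2 0.93 ± 0.0326 SE, adjusted p = 3.06e-14) in the quasi-likelihood test of edgeR, adjusted after Benjamini and Hochberg, as are all adjusted p-values below. At the low dose it was 1.48-fold and 1.67-fold (adjusted p = 6.51e-13 and 1.50e-12).

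Ppib, which folds proteins in the endoplasmic reticulum, followed the same order. In CD4+ T cells its level was 434, 427 and 416 CPM with saline, 633, 620 and 649 CPM at the low dose, and 704, 695 and 706 CPM at the high dose. The CD8+ pools held 459.9, 456 and 455 CPM, then 742, 721 and 724 CPM, then 773, 785 and 806 CPM. Again, the 3 groups did not overlap. Ppib rose 1.65-fold in CD4+ T cells (log2 0.72 ± 0.0351 SE, adjusted p = 1.21e-13) and 1.72-fold in CD8+ T cells (log2 0.79 ± 0.0342 SE, adjusted p = 5.58e-13) at the high dose, and 1.49-fold and 1.59-fold at the low dose (adjusted p = 1.90e-11 and 1.46e-11).

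Ppih and Ppil1, the spliceosomal cyclophilins, rose at both doses with TMM scaling, but the calls of Ppil1 in both lineages and of Ppih in CD8+ T cells were lost with library size scaling. Ppih was at 27.0, 27.3 and 27.8 CPM in the saline CD4+ pools, 35.6, 45.4 and 47.2 CPM at the low dose, and 50.5, 43.2 and 41.1 CPM at the high dose. The CD8+ pools held 33.4, 33.3 and 33.5 CPM, then 49.8, 49.6 and 48.6 CPM, then 51.3, 43.8 and 50.3 CPM. All treated pools were above the saline pools and the 2 doses overlapped. Ppil1 was at 88.4, 85.9 and 87.6 CPM in the saline CD4+ pools, 102, 117 and 107 CPM at the low dose, and 122, 123 and 119 CPM at the high dose. The CD8+ pools held 106, 102 and 91.0 CPM, then 128, 121 and 118 CPM, then 141, 129.6 and 141 CPM. The 3 groups did not overlap for Ppil1. At the high dose Ppih rose by 0.71 and 0.54 on the log2 scale (adjusted p = 2.17e-06 and 1.39e-06) and Ppil1 by 0.48 and 0.46 (adjusted p = 1.07e-07 and 1.28e-06) in CD4+ and CD8+ T cells. The Ppih calls at the high dose were lost in both lineages outside the cycling clusters and among cells of 4000 to 8000 UMIs, as given with the other alternatives.

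Ppic, which encodes cyclophilin C, was the only member called lower at the high dose with all cells and TMM scaling. In CD4+ T cells it was at 10.5, 11.4 and 11.8 CPM with saline (50, 77 and 77 UMIs), 15.2, 10.4 and 13.7 CPM at the low dose (59, 46 and 78 UMIs), and 1.72, 1.84 and 3.28 CPM at the high dose (10, 11 and 22 UMIs). The pools at the high dose were below all others, and those at the low dose overlapped with saline. In CD8+ T cells it was at 17.1, 15.1 and 17.0 CPM with saline, 24.2, 24.2 and 23.7 CPM at the low dose, and 12.1, 11.4 and 14.8 CPM at the high dose, so that the pools at the low dose were the highest and those at the high dose the lowest. Ppic was 4.82-fold lower at the high dose in CD4+ T cells (log2 -2.27 ± 0.232 SE, adjusted p = 2.03e-08) and 1.27-fold lower in CD8+ T cells (log2 -0.34 ± 0.109 SE, adjusted p = 0.00926). The CD8+ call was lost without replicate 2 of the 50 mg/kg group (log2 -0.27, adjusted p = 0.0600) and over all alternatives its adjusted p lay between 7.94e-07 and 0.181. At the low dose Ppic rose in CD8+ T cells (log2 0.55, adjusted p = 0.000178), a call that was lost with library size scaling (0.13, adjusted p = 0.271) and among cells of 4000 to 8000 UMIs (0.37, adjusted p = 0.0616), and its CD4+ value was log2 0.21 (adjusted p = 0.321, 95% interval from -0.15 to 0.58).

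Ppid and Ppif, of the HSP90 complex and the mitochondrion, did not pass the test at either dose with all cells and TMM scaling. Ppid lay between 55.9 and 70.4 CPM with saline, between 52.4 and 68.9 CPM at the low dose and between 57.6 and 70.9 CPM at the high dose in CD4+ T cells, and between 52.4 and 69.3 CPM over all CD8+ pools. Ppif lay between 38.7 and 47.6 CPM over all CD4+ pools and between 38.8 and 46.1 CPM over all CD8+ pools. Groups overlapped for both genes in both lineages. At the high dose the 95% interval of the log2 difference was -0.13 to 0.28 for Ppid and -0.12 to 0.21 for Ppif in CD4+ T cells. In CD8+ T cells the difference was -0.15 for Ppid (adjusted p = 0.0655) and 0.15 for Ppif (adjusted p = 0.0672).

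**Figure D1:**
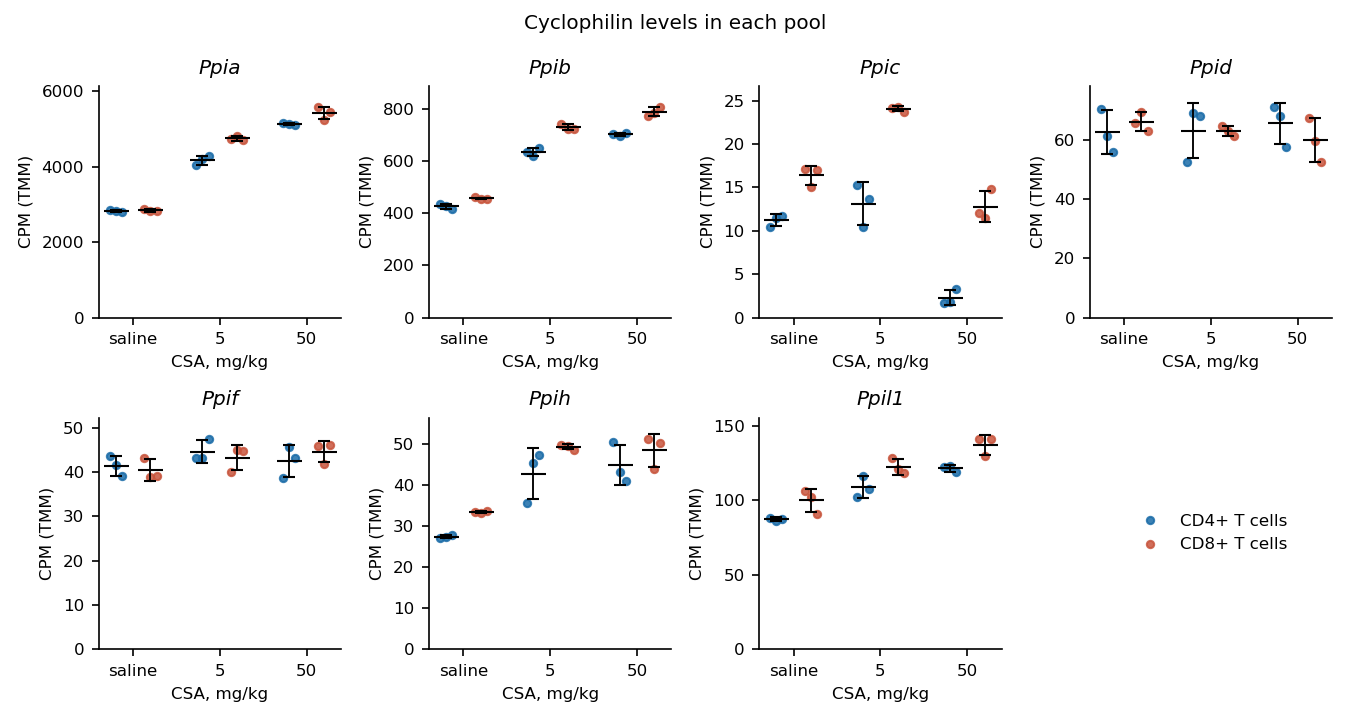
TMM-scaled CPM (linear axis from 0) of each cyclophilin gene in every pool of CD4+ (blue) and CD8+ (red) T cells, by group. Points are pools, and bars give the mean and SD of 3 pools. Ppia goes from between 2792 and 2872 CPM with saline to between 5109 and 5575 CPM at the high dose, while the CD4+ pools of Ppic drop to between 1.72 and 3.28 CPM.

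Counts of members stood against a background in which much of the transcriptome passed the test. At the high dose, 5 of 7 members passed in CD4+ T cells where 70.5% of 10568 genes tested did, and 5 of 7 in CD8+ T cells where 74.0% of 10841 genes did. Of these, 4 members were higher in each lineage, beside 34.7% and 37.1% of genes, and 1 was lower, beside 35.8% and 36.9%. At the low dose 4 of 7 passed in CD4+ T cells (51.7% of genes in either direction) and 5 of 7 in CD8+ T cells (60.2%), all of them higher, beside 26.1% and 29.9% of genes that were higher. Between the doses, 4 of 7 members passed in each lineage, beside 41.2% of genes in CD4+ and 41.0% in CD8+ T cells. Of these, 3 were higher, beside 19.9% and 20% of genes, and 1 was lower, beside 21.3% and 21.0%. The median log2 change of the 7 members at the high dose was 0.48 in CD4+ and 0.46 in CD8+ T cells, beside -0.01 and 0.00 over all genes tested.

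The step from the low to the high dose was called for Ppia (log2 0.30 in CD4+ and 0.19 in CD8+ T cells, adjusted p = 3.51e-08 and 0.000138) and for Ppib (0.15 and 0.11, adjusted p = 0.00191 and 0.0129). The Ppib call was lost in both lineages with library size scaling (0.066 and 0.0075, adjusted p = 0.115 and 0.877) and among cells of 4000 to 8000 UMIs (adjusted p = 0.142 and 0.109). Ppil1 rose by 0.16 and 0.17 (adjusted p = 0.0260 and 0.0311), a call that was lost in 3 of 9 and in 4 of 9 fits that left out a pool, and with library size scaling (adjusted p = 0.278 and 0.413). For Ppih the difference was 0.05 and -0.02 (adjusted p = 0.712 and 0.860). Ppic fell by 2.48 in CD4+ T cells and by 0.89 in CD8+ T cells on the log2 scale (adjusted p = 2.97e-08 and 4.90e-06).

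Lineages differed for a single member at each dose. With pool as a block, the change of Ppic at the high dose was 1.90 ± 0.238 SE higher on the log2 scale in CD8+ than in CD4+ T cells (adjusted p = 2.36e-06, 95% interval from 1.41 to 2.39), that is 3.73-fold, beside 19.8% of 11001 genes with such a difference. At the low dose the change of Ppia was 0.15 ± 0.0373 SE higher in CD8+ T cells (adjusted p = 0.0259, background 3.65%), and that call was lost in 5 of 9 fits that left out a pool, with adjusted p between 0.00765 and 0.132 over these 9. In the saline pools, 6 of 7 members were higher in CD8+ than in CD4+ T cells (21.5% of genes were higher, and 40.4% differed in either direction). The largest of these differences was that of Ppic (log2 0.61, adjusted p = 0.000174), followed by Ppih (0.37, adjusted p = 0.00124), Ppil1 (0.27, adjusted p = 0.000382), Ppib (0.18, adjusted p = 3.67e-05), Ppid (0.17, adjusted p = 0.0470) and Ppia (0.09, adjusted p = 0.00622). The call for Ppid was lost in 3 of 9 fits that left out a pool, and Ppif did not pass (0.04, adjusted p = 0.675). With library size scaling and with upper quartile scaling 5 members passed in place of 6, beside 40.2% of genes in each.

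Results depended on how the libraries were scaled and which cells were counted. TMM sets the bulk of genes near 0, whereas scaling by total UMIs put the median of all genes at -0.37 and -0.45 in CD4+ and at -0.43 and -0.53 in CD8+ T cells for the low and the high dose. The share of called genes that were higher at the high dose went from 49.2% to 20.4% in CD4+ and from 50.1% to 19.9% in CD8+ T cells with that scaling. The low dose went from 50.4% to 13.9% and from 49.7% to 15.8%, and the step between the doses from 48.2% to 33.1% and from 48.8% to 28.3%. Differences between lineages went from 58.0% to 39.8% at the low dose (76.7% with upper quartile scaling) and from 47.2% to 31.0% at the high dose. Ppia (0.43 and 0.40) and Ppib (0.28 and 0.26) were still called higher at the high dose in CD4+ and CD8+ T cells, and Ppic was still called lower (-2.71 and -0.87). Ppil1 stood at 0.04 and -0.07 and was not called. Ppih stood at 0.27 (adjusted p = 0.0204) and 0.01 (adjusted p = 0.929). Ppid (-0.36 and -0.68) and Ppif (-0.40 and -0.38) were called lower.

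Outside the cycling clusters Ppia rose by 0.58 and 0.65 and Ppib by 0.72 and 0.77 at the high dose in CD4+ and CD8+ T cells (TMM). Ppih was then at 0.17 (adjusted p = 0.3596) and -0.0079 (adjusted p = 0.963), and Ppil1 at 0.15 (adjusted p = 0.0846) and 0.23 (adjusted p = 0.0225). Among cells of 4000 to 8000 UMIs, which brings the depths of the groups together, Ppia rose by 0.50 and 0.61 and Ppib by 0.67 and 0.75. Ppic was at -1.71 in CD4+ (adjusted p = 8.02e-05) and at -0.26 in CD8+ T cells (adjusted p = 0.181). Ppil1 was then lower in CD4+ T cells (-0.22, adjusted p = 0.0207), and Ppih was at 0.07 and -0.06. Ppid was lower among these cells in both lineages (-0.29 and -0.22, adjusted p = 0.0335 and 0.0307).

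**Figure D2:**
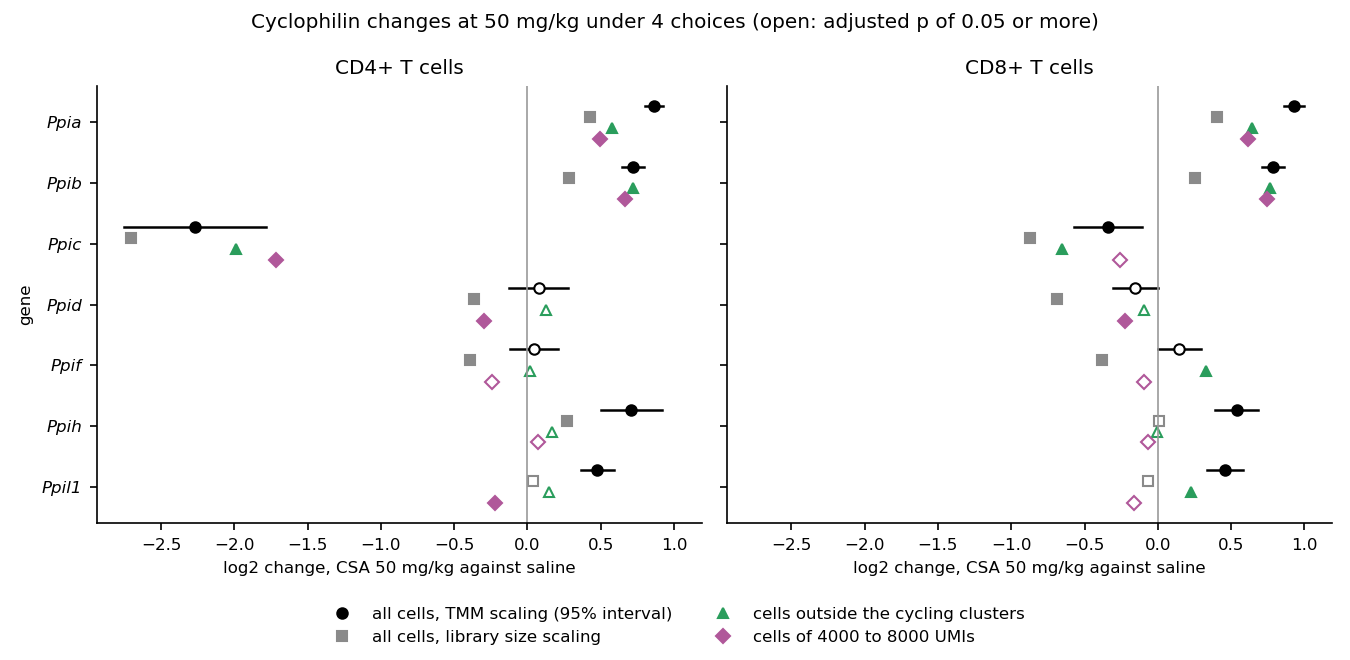
Log2 change at the high dose against saline for each cyclophilin gene in CD4+ (left) and CD8+ (right) T cells under 4 choices of scaling and cells. Filled symbols have an adjusted p under 0.05, open symbols do not, and bars are 95% intervals of the fit with all cells and TMM scaling. Ppia and Ppib stay to the right of 0 under all 4 choices, from 0.43 to 0.87 and from 0.28 to 0.72 in CD4+ T cells, whereas Ppid, Ppif and Ppil1 lie on both sides of 0 in at least 1 lineage and Ppih in CD8+ T cells.

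In sums over cells, fewer cells with a transcript and less RNA per cell cannot be told apart, so cells were also thinned to 2000 UMIs each and those with a UMI of the gene were counted. Ppib was found in 61.9%, 67.2% and 70.1% of thinned CD4+ T cells and in 65.2%, 72.1% and 72.9% of thinned CD8+ T cells in the order of saline, low dose and high dose (SD over 3 pools from 1.06 to 1.69). Ppic was found in 2.35% ± 0.223, 2.49% ± 0.506 and 0.396% ± 0.247 of CD4+ T cells and in 3.80% ± 0.330, 3.37% ± 0.241 and 1.66% ± 0.315 of CD8+ T cells (SD, n = 3 pools). Unthinned, the Ppic shares were 4.09%, 4.55% and 1.06% and then 7.53%, 11.3% and 6.43%. Thinned shares of Ppih were 6.00%, 6.77% and 6.83% in CD4+ and 7.19%, 7.10% and 6.399% in CD8+ T cells. Shares of Ppil1 lay between 16.7% and 17.1% in CD4+ and between 18.3% and 19.99% in CD8+ T cells. Shares of Ppid were 12.7%, 10.9% and 9.72% in CD4+ and 13.9%, 10.99% and 9.69% in CD8+ T cells. Those of Ppif were 8.655%, 7.81% and 7.38%, then 9.15%, 7.07% and 6.74%. The SD over 3 pools lay between 0.44 and 1.95 for Ppid and Ppif. Thinning sets a fixed UMI total per cell. With scaling by total UMIs the median gene was lower at the high dose, at -0.45 in CD4+ and -0.53 in CD8+ T cells. Ppia was found in over 99% of thinned cells of every group and its share carries no contrast. Cells kept for thinning numbered 3663, 2517 and 2984 CD4+ and 4518, 2579 and 3524 CD8+ T cells, and no test was run on these shares.

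Within the authors' clusters, Ppia and Ppib rose in most at the high dose with TMM scaling. With counts summed for each pool within a cluster, 19 clusters with at least 2 pools of 10 cells in each group were fitted one by one. At the high dose 37 of 105 tests of a member in a cluster passed (33 higher, 4 lower), or 35.2%, beside 36.5% of all 108307 tests of a gene in a cluster. In 1 direction, 17.9% of those tests were higher and 18.6% lower. With library size scaling 33 passed, of which 18 were higher and 15 lower. At the low dose 28 of 105 passed (26 higher, 2 lower), or 26.7%. By cluster, between 1.1% and 37.5% of all genes tested passed at the low dose, and the share over all clusters together was not counted. The highest share was in CD8 C2, with 1788 genes higher and 1736 lower (5 of 7 members higher). The lowest was in CD8 C7, with 23 genes higher and 14 lower (0 of 5 members). At the high dose the shares by cluster lay between 2.88% and 58.9%.

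Ppia rose at the high dose in 13 of 19 clusters, by 0.14 to 0.97 on the log2 scale. The largest rise was in CD4 C5, cycling effector cells (log2 0.97, from 3724 ± 294 to 5586 ± 29.5 CPM, SD over 3 pools), and CD8 C3, also cycling effector cells, followed (0.85, from 3966 ± 41.5 to 5231 ± 124 CPM). Levels by cluster are CPM of the total UMIs, whereas the tests within clusters use TMM scaling. Values were near 0 in CD4 C1, Cd226lo effector cells (0.00, 95% interval from -0.09 to 0.09), and in CD8 C7, naive T cells (-0.06, from -0.20 to 0.08). In CD4 C2, Tcf7hi precursor-like cells, Ppia was at -0.12 (adjusted p = 0.0539), with 3389 ± 138 CPM in the saline pools and 2791 ± 112 CPM at the high dose. At the low dose Ppia rose in 10 of 19 clusters and fell in CD4 C6, cycling Cd226hi effector cells (log2 -0.46, adjusted p = 0.00300). By CPM of total UMIs, the mean of Ppia was above saline at the high dose in 7 of 11 CD4+ and 6 of 8 CD8+ clusters, and at the low dose in 4 of 11 CD4+ and 6 of 9 CD8+ clusters.

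Ppib rose at the high dose in 12 of 19 clusters, by 0.18 to 0.86. Among them were the Cd226hi effector cells of both lineages, CD4 C0 (0.86, from 460.0 ± 7.52 to 610.1 ± 11.9 CPM) and CD8 C0 (0.86, from 496 ± 36.2 to 616 ± 34.6 CPM), and CD8 C5, Tcf7hi stem-like cells (0.85, from 493 ± 53.4 to 676 ± 75.0 CPM). The naive clusters CD4 C9 (-0.14) and CD8 C7 (-0.03) did not pass. Ppih rose in 3 of 13 clusters tested, all of them cycling (CD4 C5 0.81, CD8 C2 0.66, CD8 C3 0.58), and fell in CD8 C1, Cd226lo effector cells (-0.77). Ppil1 rose in 4 of 16 (CD4 C0 0.53, CD4 C5 0.38, CD8 C2 0.44, CD8 C3 0.54) and fell in CD4 C2 (-0.68). Ppid passed in CD8 C0 of 16 clusters (-0.36) and Ppif in CD8 C0 of 15 (0.55).

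**Figure D3:**
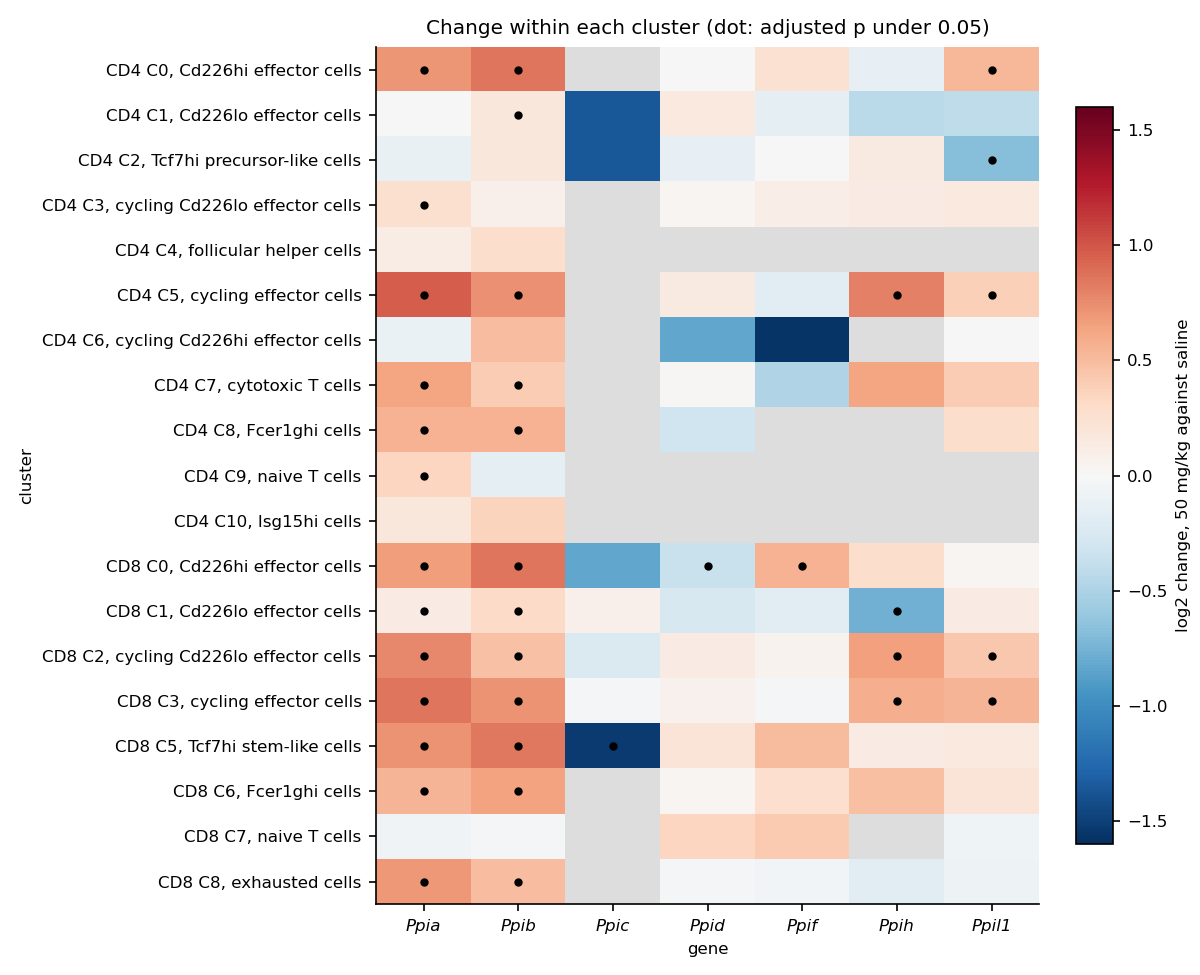
Log2 change of each cyclophilin gene at the high dose against saline within each cluster of CD4+ and CD8+ T cells (colour scale from -1.6 to 1.6, grey where the gene did not pass the filter on low counts, dot where adjusted p was under 0.05). Dots fill most of the columns of Ppia (13 of 19) and Ppib (12 of 19) and are few in the other columns.

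Ppic was low everywhere, and its highest saline levels were in 2 CD8+ clusters. CD8 C5, Tcf7hi stem-like cells, held 49.9 ± 20.3 CPM with saline, 54.4 ± 12.01 CPM at the low dose and 14.3 ± 10.8 CPM at the high dose (75, 103 and 7 UMIs), a fall by 1.53 on the log2 scale (adjusted p = 0.0268). CD8 C7, naive T cells, held 38.0 ± 12.8, 21.7 ± 1.24 and 23.7 ± 7.41 CPM. The saline ranges of these neighbours overlapped, from 26.9 to 65.5 and from 23.4 to 47.3 CPM. In the other 7 CD8+ clusters the saline mean lay between 11.9 and 20.8 CPM. Of the 11 CD4+ clusters with saline cells in at least 2 pools, C10 and C4 had the highest saline means. C10 (Isg15hi cells) held 25.9 ± 24.0 CPM, from 4 UMIs in 69 cells. C4 (follicular helper cells) held 20.6 ± 4.36 CPM, from 39 UMIs in 733 cells. Both were at 0 UMIs at the high dose in 66 and 45 cells. So were CD4 C7 in 148 cells, C8 in 141 cells, and C6, C11 and C12. By CPM of total UMIs, the mean of Ppic was lower at the high dose than with saline in 11 of 11 CD4+ clusters, with all pools lower in 9, and in 8 of 8 CD8+ clusters, with all pools lower in 3. On this scale the median gene was lower too, at -0.45 in CD4+ and -0.53 in CD8+ T cells. Ppif was likewise lower in 11 of 11 CD4+ clusters (all pools lower in 4) and in 5 of 8 CD8+ clusters (all pools lower in 1). The share of all genes that did so was not counted. Few of these clusters had Ppic counts for a test, and of the 7 clusters tested with TMM scaling CD8 C5 alone passed, while the other 6 lay between -1.36 (CD4 C1 and C2) and 0.09 (CD8 C1). CD8 C5 cells made up 9.68% of CD8+ T cells with saline, 10.3% at the low dose and 2.15% at the high dose.

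**Figure D4:**
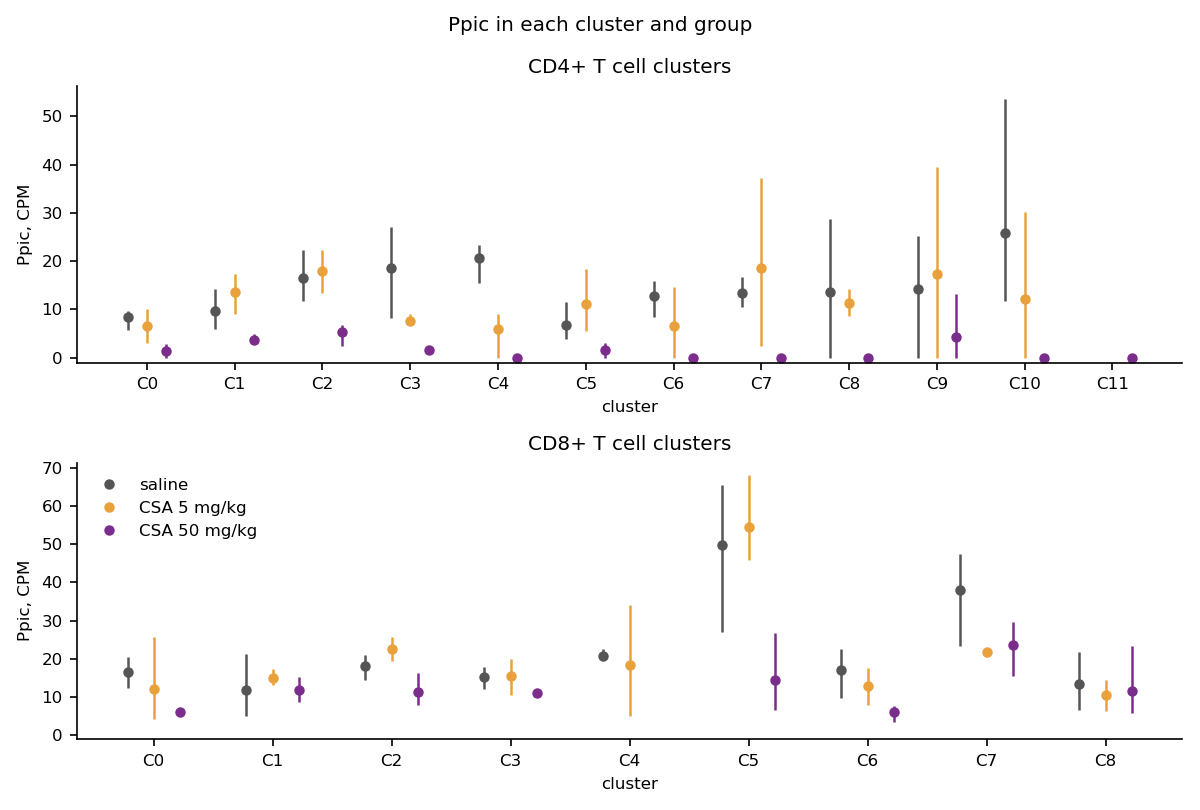
Ppic level (CPM of total UMIs, linear axis) in each cluster of CD4+ (top) and CD8+ (bottom) T cells by group. Points are means over pools that held at least 10 of the cluster's cells, lines run from the lowest to the highest pool, and groups with fewer than 2 such pools are not shown. CD8 C5 stands highest with saline (49.9 CPM) and the low dose (54.4 CPM) and is at 14.3 CPM at the high dose.

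The members also differed in where they were highest across clusters, which is given as a description because the clusters were made from these cells' counts. With saline, Ppia was highest in the cycling Cd226lo effector cells of both lineages, CD4 C3 (5599.7 ± 34.6 CPM, next C7 at 3739 CPM) and CD8 C2 (4413 ± 76.8 CPM, next C7 at 4007 CPM), and the pools of these neighbours did not overlap. It was lowest in CD4 C4 (2599 ± 84.8 CPM) and CD8 C0 (2771 ± 50.5 CPM). Ppib varied least, 1.59-fold between the highest and lowest CD4+ clusters and 1.33-fold between those of CD8+ T cells. Ppid and Ppif were highest in the cytotoxic cells CD4 C7 (151 ± 15.2 and 119 ± 20.6 CPM) and in the exhausted cells CD8 C8 (128 ± 36.2 and 76.6 ± 5.16 CPM). For Ppid the next CD8+ cluster, C4, at 112 ± 10.0 CPM, did not differ from CD8 C8 beyond the spread of the pools. Ppih was highest in CD4 C3 (60.1 ± 11.8 CPM) and CD8 C3 (49.5 ± 1.36 CPM), with the pools of CD8 C2 (48.4 ± 3.32 CPM) overlapping the latter. Ppil1 was highest in CD4 C3 (186 ± 6.03 CPM) and CD8 C2 (172 ± 6.65 CPM).

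The 4 markers of cycling cells summed to between 1655 and 1814 CPM in the saline CD4+ pools and between 1074 and 1162 CPM at the high dose, and to between 2645 and 2821 CPM and between 1022 and 1247 CPM in CD8+ T cells, and their part in the results was not tested. Cycling clusters stood above the other clusters of the same pool for 5 of the 7 genes in all 9 pools of both lineages. The share of all genes that did so was not counted, so this count describes these genes alone. The ratio of means over all pools was 2.31 in CD4+ and 2.24 in CD8+ T cells for Ppih, 2.09 and 2.07 for Ppil1, 1.53 and 1.46 for Ppia, 1.26 and 1.21 for Ppid, and 1.11 and 1.12 for Ppib. For Ppif it was 1.21 in each lineage, with cycling cells higher in 8 of 9 CD4+ and 9 of 9 CD8+ pools. Ppic went the other way (0.773 and 0.843), with cycling cells higher in 2 of 9 pools of each lineage. The ratio for Ppia was 1.26 with saline, 1.62 at the low dose and 1.69 at the high dose in CD4+ T cells, and 1.21, 1.53 and 1.63 in CD8+ T cells. The saline pools did not overlap with the treated pools in this ratio, as the cycling cells went from 3923 ± 48.0 to 5828 ± 57.6 CPM in CD4+ T cells while the other cells went from 3101 ± 35.2 to 3439 ± 67.0 CPM. Different clusters made up the cycling cells in each group. CD4 C3, C5 and C6 held 180, 262 and 443 cells with saline and 541, 438 and 34 cells at the high dose. CD8 C2, C3 and C4 held 796, 662 and 1015 cells and then 875, 709 and 20 cells. Within CD4 C3 the mean of Ppia was 5599.7 CPM with saline and 6046 CPM at the high dose. In the tests within clusters (TMM), the log2 change of Ppia was 0.26 in CD4 C3, 0.97 in CD4 C5 and -0.11 in CD4 C6. It was 0.77 in CD8 C2 and 0.85 in CD8 C3, and CD8 C4 was not among the clusters tested. All of these but CD4 C6 were called. The part of cluster make-up in the ratio was not tested.

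**Figure D5:**
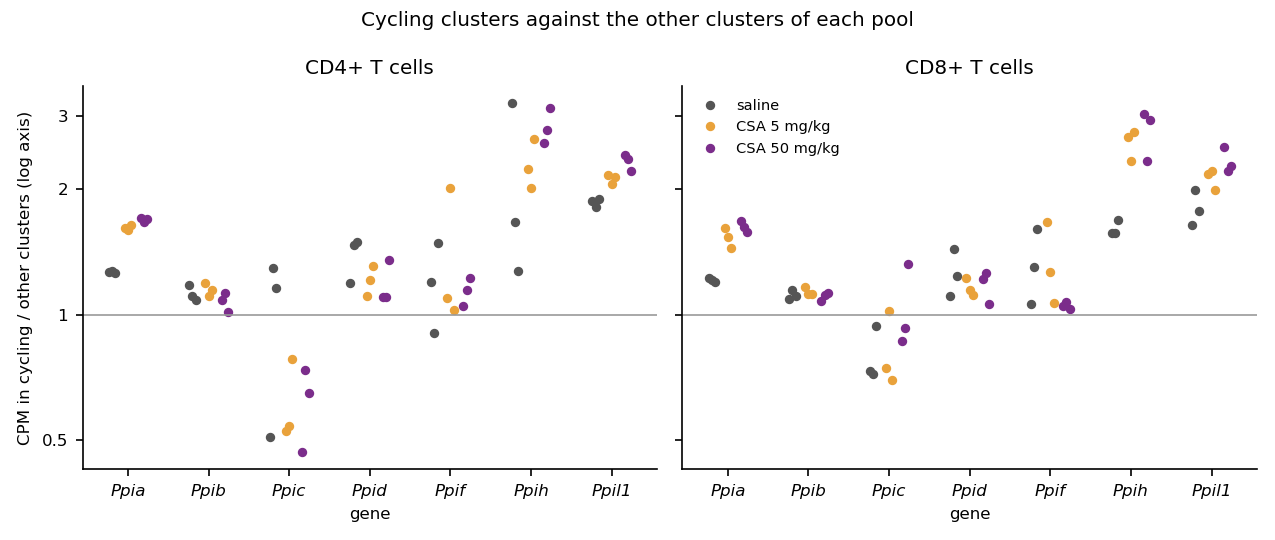
CPM of each cyclophilin gene in the cycling clusters divided by that in all other clusters of the same pool (log axis, 1 point per pool, line at 1), for CD4+ (left) and CD8+ (right) T cells. Ppih and Ppil1 stand highest, Ppic lies mostly below 1, and for Ppia the ratio of means goes from 1.26 with saline to 1.69 at the high dose in CD4+ T cells.

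Over the 20 clusters with enough saline cells, the pattern of each member was compared with 6529 genes by Pearson's r of log2(CPM + 5), as a description over clusters that share pools and depth. Most alike were Banf1 (0.94), Gclm (0.90) and Snrpc (0.89) for Ppia, and Ndufb7 (0.84), Ube2a (0.82) and Ap2s1 (0.81) for Ppib. For Ppid they were Psme3 (0.97), Cct8 (0.96) and Hspd1 (0.95), and for Ppif Noc2l (0.90), Rrs1 (0.90) and Nsun2 (0.89). For Ppih they were Lockd (0.88), Rpp30 (0.87) and Pih1d1 (0.82), and for Ppil1 Dek (0.94), Dut (0.94) and Alyref (0.94). Between members r was 0.79 for Ppid with Ppif, 0.68 for Ppia with Ppib and -0.01 for Ppia with Ppid. Ppic was below the 20 CPM needed.

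Genes that work beside the cyclophilins were counted from lists made for each compartment. Of 10 other cyclophilins 9 were tested, and at the high dose 3 rose and 2 fell in CD4+ and 4 rose and 3 fell in CD8+ T cells (median log2 -0.01 and -0.05). With library size scaling 1 rose and 7 fell in CD4+ T cells, and 0 rose and 8 fell in CD8+ T cells. The low dose gave 4 higher and 2 lower, and 4 higher and 3 lower (with library size scaling 1 and 5, and 2 and 5). Ppil3 (0.69 and 0.66), another cyclophilin-like isomerase, rose in both lineages, and its CD8+ call was lost with library size scaling (0.13, adjusted p = 0.0601). Ppig (0.45 and 0.37) rose too, but with library size scaling it stood at 0.02 and -0.16. The nuclear pore protein gene Ranbp2 fell by 1.41 and by 1.77, and Nktr fell by 0.67 and by 0.77 in CD4+ and CD8+ T cells.

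The FKBP and parvulin isomerases, which include the receptor of tacrolimus, had 8 of 12 genes higher and 2 lower in CD4+ and 9 of 13 higher and 2 lower in CD8+ T cells (median 0.65 and 0.60, and 0.21 and 0.07 with library size scaling). Library size scaling left 6 higher and 2 lower, and 5 higher and 3 lower. The low dose gave 8 higher and 2 lower in CD4+ and 10 higher and 2 lower in CD8+ T cells (with library size scaling 5 and 2 in each). Fkbp1a, that receptor's gene, went from 361 ± 15.7 to 628 ± 13.1 CPM in CD4+ T cells (log2 0.80, adjusted p = 1.17e-13) and from 275 ± 6.72 to 421 ± 3.55 CPM in CD8+ T cells (0.61, adjusted p = 8.03e-11), a CD8+ call that was lost with library size scaling (0.083, adjusted p = 0.0530). Pin4 rose by 1.40 and 1.44, while Fkbp5 fell by 0.50 and by 0.66 and Fkbp15 fell by 0.39 and by 0.43.

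Calcineurin itself, the target of the CSA and cyclophilin complex, moved both ways among its 4 genes, of which 2 rose and 2 fell in each lineage (0 higher with library size scaling, where 3 fell in CD4+ and 2 in CD8+ T cells). The low dose gave 1 higher and 2 lower in CD4+, and 0 higher and 2 lower in CD8+ T cells (with library size scaling 0 and 3, and 0 and 4). At the high dose in CD4+ T cells the catalytic subunit gene Ppp3ca rose (0.57, from 62.6 ± 5.05 to 92.9 ± 5.21 CPM) and Ppp3cb fell by 0.60, and the regulatory subunit gene Ppp3r1 fell by 0.59. The same genes were at 0.42, -0.74 and -0.61 in CD8+ T cells. Ppp3cc rose by 0.24 in CD4+ and by 0.43 in CD8+ T cells, but stood at -0.20 and -0.10 with library size scaling, where Ppp3ca stood at 0.13 and -0.11.

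Partners in the other compartments were mixed. Counts are given for TMM, with those for library size scaling (higher and lower, CD4+ and then CD8+ T cells) in parentheses. Of 17 folding factors of the endoplasmic reticulum, where Ppib acts, 6 rose and 7 fell in CD4+ and 5 rose and 8 fell in CD8+ T cells (2 and 9, then 1 and 11), and at the low dose 4 rose and 4 fell, and 5 rose and 8 fell (1 and 11, then 1 and 11). Fkbp2 (0.76 and 0.60) and Manf (0.66 and 0.62) rose, with CD8+ calls that were lost with library size scaling (adjusted p = 0.212 and 0.246), whereas the chaperones Hspa5 (by 0.94 and by 1.02) and Canx (by 0.91 and by 1.19) fell. Of 14 genes of HSP90 and its co-chaperones 7 rose and 4 fell in CD4+ and 7 rose and 6 fell in CD8+ T cells (1 and 7, then 0 and 9), and at the low dose 8 rose and 1 fell, and 7 rose and 2 fell (0 and 7, then 0 and 9). Fkbp5, given above, is on this list too, with Sugt1 at 0.46 and 0.63 and Stip1 at -0.30 and -0.45. Sugt1 was not called in either lineage with library size scaling (adjusted p = 0.730 and 0.0579). Of 11 mitochondrial partners of Ppif 9 rose and 2 fell in each lineage (median 0.52 and 0.53, and 0.083 and -0.00055 with library size scaling, where 5 rose and 3 fell, and 4 rose and 4 fell), and at the low dose 9 rose and 1 fell in each (4 and 3, then 3 and 3). Tspo was at 0.93 and 1.04 and Atp5o at 0.77 and 0.86. Of 15 spliceosome genes 6 rose and 4 fell in CD4+ and 6 rose and 5 fell in CD8+ T cells (1 and 12, then 2 and 12), and at the low dose 6 rose and 4 fell in each (0 and 9, then 0 and 10). Examples were Bcas2 at 0.69 and 0.82, Ctnnbl1 at 0.64 and 0.67, Prpf8 at -1.21 and -1.46, and Snrnp200 at -0.89 and -1.06. Ctnnbl1 was not called in either lineage with library size scaling (adjusted p = 0.0708 and 0.133).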

How the data were processed

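Counts of unique molecular identifiers (UMIs) per gene and cell were deposited by the authors as raw counts, made from 10x Chromium 5′ libraries. The submitters' notes name Cell Ranger, Seurat 3.0.0 and mm10; the annotation and the use of strand are not given in the sources used here. The authors also deposited UMIs per cell, hashtag antibody counts, pool, cluster and TEa mark of each cell, and the mitochondrial share of UMIs as a fraction. UMI sums equalled the authors' number in all 21204 cells. Doublets were not called here, and cells with a second strong hashtag were left out in an alternative.

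Counts were summed per pool and lineage (and per cluster) and tested with edgeR 4.0.16 in R 4.3.3: TMM scaling, filterByExpr, 3 groups in 1 quasi-likelihood fit, Benjamini-Hochberg adjustment over all genes tested, threshold 0.05. Lineages were compared in 1 fit of 18 sums with pool as a block. SE is the log2 change divided by the root of F. CPM by cluster used total UMIs. Levels across clusters, cycling ratios and thinned shares have no test. All 7 members were named, and from each list at most 2 genes per direction with the largest called change at 50 mg/kg in CD4+ T cells and a mean of at least 20 CPM. The 4 calcineurin genes were all named. Some list and marker genes that this rule would name are not reported here. The members and lists were chosen with earlier results of these data known. In counts simulated on the CD4+ pools (10426 genes), 99 of 100 genes changed by log2 1, 49 of 100 changed by 0.5 and 10 of 10226 unchanged genes were called at 50 mg/kg. The simulation used the same fixed dispersion for every gene and changed few genes, as many up as down. In the data 70.5% of genes were called in that comparison, so the simulation gives no error rates for them. Annotation was GENCODE on GRCm38, and copies were sought with blastn 2.17.0. Alternatives covered scaling, filter, tool (DESeq2 1.42.0), cells, pool number and leaving out each pool. Protein sequences were not used here.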

Additional observations from a re-analysis of the deposited data

Results flagged for a closer look

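The change of Ppic at 50 mg/kg differed between the lineages by 1.90 on the log2 scale, being larger in CD4+ T cells (from between 10.5 and 11.8 CPM with saline to between 1.72 and 3.28 CPM) than in CD8+ T cells (from between 15.1 and 17.1 CPM to between 11.4 and 14.8 CPM). The difference itself was tested in 1 fit over both lineages and stayed past the threshold in 9 of 9 fits that left out a pool, with values from 1.78 to 2.15. The CD4+ level at 50 mg/kg rests on 10, 11 and 22 UMIs.

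The change of Ppia at 5 mg/kg differed between the lineages by 0.15 on the log2 scale, being larger in CD8+ T cells. This difference passed the threshold with all pools and in 4 of 9 fits that left out a pool.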

How the results depend on the processing

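Where 4 members passed for 50 against 5 mg/kg, 2 passed with library size scaling and 2 among cells of 4000 to 8000 UMIs, in CD4+ and in CD8+ T cells. Over all genes the share called went from 41.2% to 40.7% and 23.5% in CD4+ T cells. In CD8+ T cells it went from 41.0% to 42.6% and 31.6%. Cells of 4000 to 8000 UMIs gave 2 members in CD8+ T cells at 5 mg/kg and 3 at 50 mg/kg, each in place of 5. The share of all genes went from 60.2% to 54.7% and from 74.0% to 70.0%. Outside the cycling clusters 3 members passed in CD4+ T cells at 50 mg/kg and 3 in CD8+ T cells at 5 mg/kg, in place of 5. There the share of all genes went from 70.5% to 65.7% and from 60.2% to 46.9%. The difference of the 50 mg/kg change between lineages was called for 2 members with library size scaling and for 2 without a filter on low counts. All genes stood at 22.5% and 12.6% in these settings, in place of 19.8%. The cause was not tested.

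Leaving out 1 pool at a time, members called ranged from 3 to 4 (50 against 5 mg/kg, either lineage), from 5 to 6 (CD8+ at 50 mg/kg, and CD8+ against CD4+ T cells with saline), from 0 to 1 (difference between lineages at 5 mg/kg) and from 1 to 2 (at 50 mg/kg), and stayed at 4 (CD4+ at 5 mg/kg), 5 (CD4+ at 50 mg/kg) and 5 (CD8+ at 5 mg/kg). The difference at 5 mg/kg was lost without any 1 of the saline pools or without replicate 1 or 2 of the 5 mg/kg group, and a second member, Ppid, passed at 50 mg/kg without replicate 1 of saline or of the 5 mg/kg group.

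Signs turned as follows. With library size scaling in CD4+ T cells, Ppic (-0.14), Ppid (-0.32), Ppif (-0.24) and Ppil1 (-0.040) turned at 5 mg/kg, Ppid (-0.36) and Ppif (-0.40) at 50 mg/kg, and Ppid (-0.040) and Ppih (-0.028) between the doses. In CD8+ T cells Ppif (-0.31) and Ppil1 (-0.13) turned at 5 mg/kg, Ppif (-0.38) and Ppil1 (-0.070) at 50 mg/kg and Ppif (-0.072) between the doses, and the difference between lineages at 50 mg/kg turned for Ppia (-0.024) and Ppib (-0.027). Among cells of 4000 to 8000 UMIs, Ppid (-0.32), Ppif (-0.11) and Ppil1 (-0.18) turned at 5 mg/kg, Ppid (-0.29), Ppif (-0.24) and Ppil1 (-0.22) at 50 mg/kg, and Ppih (-0.19) and Ppil1 (-0.043) between the doses in CD4+ T cells. The CD8+ results that turned were Ppif (-0.024) and Ppil1 (-0.10) at 5 mg/kg, Ppif (-0.092), Ppih (-0.063) and Ppil1 (-0.16) at 50 mg/kg, and Ppif (-0.069) and Ppil1 (-0.057) between the doses. Outside the cycling clusters Ppih (-0.30) and Ppil1 (-0.071) turned between the doses in CD4+ T cells, and Ppid (0.011) at 5 mg/kg and Ppih (-0.0079) at 50 mg/kg in CD8+ T cells. Leaving out 1 pool, values that crossed 0 ranged in CD4+ T cells from -0.040 to 0.14 (Ppid, 5 mg/kg), from -7.64e-05 to 0.17 (Ppid, 50 mg/kg), from -0.0074 to 0.11 (Ppif, 50 mg/kg), from -0.062 to 0.13 (Ppid, between doses) and from -0.048 to 0.14 (Ppih, between doses). Between the doses in CD8+ T cells they ranged from -0.17 to 0.017 (Ppid), from -0.0077 to 0.079 (Ppif) and from -0.058 to 0.046 (Ppih), and for the difference between lineages at 50 mg/kg from -0.11 to 0.014 (Ppil1).

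Ppia and Ppib at both doses and Ppic in CD4+ T cells at 50 mg/kg kept direction and call under all alternatives run. The rises of Ppia and Ppib refer to saline, and the step of Ppib between the doses was lost with library size scaling and among cells of 4000 to 8000 UMIs. DESeq2 lost the CD8+ call of Ppic at 50 mg/kg (-0.35, adjusted p = 0.0594), and between the doses it called 3 members in place of 4 in each lineage. Over all genes it called 24.9% and 38.8% in CD4+ and 32.0% and 42.5% in CD8+ T cells at 5 and 50 mg/kg, and 18.8% and 19.5% between the doses. In the block on pool number, the CD4+ change at 50 mg/kg was 0.87 for Ppia and -2.28 for Ppic, and 1 call changed, that of Ppid in CD8+ T cells (-0.15, adjusted p = 0.0453). Same-numbered pools are not known to be paired, and their correlations ran from -0.11 to 0.01 in CD4+ and from -0.25 to 0.15 in CD8+ T cells. The share of cells with a second strong hashtag did follow pool number. It rose from pool 1 to pool 3 in every group and lineage, for example from 0.211% to 5.93% in saline CD8+ T cells. Within clusters 33 tests passed with library size scaling (18 higher, 15 lower), 40 of 133 with no filter and 35 of 93 with at least 20 cells per pool. The share over all genes was not counted for these settings within clusters. Leaving out cells with a second strong hashtag, chosen after seeing the data as was the library size scaling of the lists, changed none of 42 calls. Depth limited Ppic most, with as few as 10 UMIs per pool.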

Other observations

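TEa cells numbered 123 in the saline group, 130 after the low dose (5 mg/kg) and 27 after the high dose (50 mg/kg), with between 7 and 50 cells per pool. Their Ppia level was 3469 ± 481, 4104 ± 207 and 4305 ± 839 CPM of total UMIs (SD, n = 3 pools), beside 3378 ± 17.2, 3901 ± 82.2 and 4541 ± 29.8 CPM in CD4+ T cells without the TEa mark. Ppil1 was at 146 ± 4.503 CPM in TEa cells and 105 ± 1.36 CPM outside them with saline, higher in 3 of 3 pools, and at 88.5 ± 9.95 and 102 ± 6.77 CPM at 5 mg/kg, higher in 1 of 3 pools. Ppic had 10, 11 and 0 UMIs in the TEa cells of the 3 groups. No test was run on these few cells.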
